A study of Homo sapiens with 28 samples.

Results

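The epithelial identity genes are 10 genes whose products hold epithelial cells together or keep them epithelial: SPINT2, CLDN3, CLDN4, ESRP1, ELF3, MUC1, EPCAM, CDH1, GRHL1 and GRHL2. Their chromatin was followed through the consensus ATAC-seq peaks that lie within 20 kb of the 10 gene bodies on GRCh38. This rule, which uses position alone, took 67 of the 105048 peaks. GRHL2 had 14 of them, SPINT2 10, CDH1 9, CLDN4 7, ELF3 and MUC1 6 each, CLDN3, ESRP1 and EPCAM 4 each, and GRHL1 3. Of the 67 peaks, 33 overlapped one of the gene bodies and 34 lay outside. For 48 of them the nearest gene was one of the 10, for 19 it was another gene, and 12 lay at an end of another gene.

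Epithelial cells are joined by adherens junctions, built on E-cadherin (CDH1), and by tight junctions, sealed by claudins such as CLDN3 and CLDN4. EPCAM is a surface adhesion protein of epithelia, MUC1 a membrane mucin of the apical surface, and SPINT2 a membrane-bound inhibitor of serine proteases. GRHL1 and GRHL2 are grainyhead-like transcription factors and ELF3 is an ETS-family factor, all of which activate epithelial genes, and ESRP1 is a splicing regulator that produces epithelial isoforms. The repressors ZEB1, ZEB2, SNAI1 and SNAI2 bind E-box motifs at such genes and oppose this programme, and many high-grade serous ovarian carcinomas express epithelial genes at high levels.

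All cells were Kuramochi, an established human ovarian cancer line that carries a BRCA2 mutation, and ATAC-seq (Omni-ATAC, about 50000 cells per library) measured which DNA was open. The 10 groups had 2 libraries each. The C group received no drug. The 7 T populations had adapted to olaparib, an inhibitor of PARP, and are named for the dose they were exposed to: T5 received 5 uM, T10 received 10, T20 received 20, T40 received 40, T80 received 80, T160 received 160 and T320 received 320 uM. P10 and P320 were cells exposed for 9 days to 10 and 320 uM, named persisters by the submitters. Cells of C and of the adapted populations went through a CD24 and CD44 sort, which kept CD24 low, CD44 high cells of the T populations, while for P10 and P320 the labels give no sort. Sort and drug history therefore cannot be told apart in any comparison of P with T or C, nor between T and C where C cells of other CD24 or CD44 levels were kept. The samples are called duplicates, without a word on separate cultures, so p-values measure the spread between these libraries, which may be technical. In bulk chromatin, fewer cells with an open site and less opening per cell cannot be told apart. Another 8 samples of the series were not analysed here.

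The promoter sequences of CLDN3, CLDN4, ELF3, MUC1 and GRHL1 are shown first, the 5 of the 10 genes with an entry in the RefSeq promoter table (GRCh38.p14). The accessibility values given below for their promoters are counts over whole peaks, 1484 to 2875 bases wide. The printed stretches are only a part of these peaks. Each sequence is the 250 bases before the transcription start, 5′ to 3′ on the gene's strand, and each lies inside the peak that represents its gene. Capitals mark CACCTG in either orientation, the E-box read by the ZEB and SNAI repressors, and TGANTCA, the motif of AP-1 factors. CLDN3 (chr7:73770271-73770520, minus strand) held neither. CLDN4 (chr7:73830746-73830995, plus strand) held 2 TGANTCA matches, starting 242 and 161 bases before the start. ELF3 (chr1:202010337-202010586, plus strand) held 1 CACCTG match 120 bases before the start, and MUC1 (chr1:155192916-155193165, minus strand) held 2, at 82 and 75 bases. GRHL1 (chr2:9951443-9951692, plus strand) held neither.
CLDN3: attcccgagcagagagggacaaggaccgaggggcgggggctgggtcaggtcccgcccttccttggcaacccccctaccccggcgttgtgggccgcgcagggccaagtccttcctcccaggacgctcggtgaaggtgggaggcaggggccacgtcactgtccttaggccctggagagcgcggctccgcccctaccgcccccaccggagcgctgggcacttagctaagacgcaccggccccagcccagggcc
CLDN4: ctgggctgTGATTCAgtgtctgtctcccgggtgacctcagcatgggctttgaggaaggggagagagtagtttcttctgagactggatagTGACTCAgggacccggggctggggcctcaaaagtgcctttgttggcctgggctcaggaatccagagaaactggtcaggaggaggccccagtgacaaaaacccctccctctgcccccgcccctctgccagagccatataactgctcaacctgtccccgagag
ELF3: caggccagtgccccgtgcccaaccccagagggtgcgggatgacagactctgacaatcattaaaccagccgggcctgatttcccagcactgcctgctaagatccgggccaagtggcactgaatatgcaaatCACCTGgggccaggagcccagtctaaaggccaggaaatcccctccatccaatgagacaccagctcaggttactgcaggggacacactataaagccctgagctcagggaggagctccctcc
MUC1: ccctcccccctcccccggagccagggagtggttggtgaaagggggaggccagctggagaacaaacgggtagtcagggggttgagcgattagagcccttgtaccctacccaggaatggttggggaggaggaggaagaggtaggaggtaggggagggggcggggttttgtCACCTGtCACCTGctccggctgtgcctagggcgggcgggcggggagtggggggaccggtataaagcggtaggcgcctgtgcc
GRHL1: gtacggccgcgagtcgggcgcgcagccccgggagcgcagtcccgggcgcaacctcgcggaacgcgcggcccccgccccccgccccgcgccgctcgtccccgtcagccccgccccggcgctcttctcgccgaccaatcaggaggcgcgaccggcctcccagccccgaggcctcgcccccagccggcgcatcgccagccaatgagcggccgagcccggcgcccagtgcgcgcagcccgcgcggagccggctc
Over the 27305 promoters of the table, read in the same 250 bases before the start and in both orientations, 17.5% held CACCTG and 6.60% held TGANTCA. The grainyhead-type motif AACNNGTT (2.97% of promoters) and the ETS motif CCGGAA (14.8%) were in none of the 5 sequences, and TATAAA (11.1%) was in those of ELF3 and MUC1. A match describes letters only and names no bound factor. GC content was 81.6% in GRHL1, 71.6% in CLDN3, 66.0% in MUC1, 58.8% in CLDN4 and 58.4% in ELF3.

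For the 5 genes with a promoter entry, the peak over the promoter is called the start peak. SPINT2, ESRP1, EPCAM and CDH1 had no entry and are represented by a gene-end peak, the strongest peak within 1 kb of either end of the gene, since the gene table gives no strand. GRHL2 had no peak within 1 kb of either end and is described through its inner peaks. The gene bodies lie at chr19:38264573-38292615 (SPINT2), chr7:73768997-73770270 (CLDN3), chr7:73830996-73832690 (CLDN4), chr8:94641174-94707466 (ESRP1), chr1:202010587-202017183 (ELF3), chr1:155185824-155192915 (MUC1), chr2:47369311-47387020 (EPCAM), chr16:68737292-68835537 (CDH1), chr2:9951693-10002277 (GRHL1) and chr8:101492439-101681200 (GRHL2). The table holds no exons, so exon and intron were not determined. Levels are CPM, the counts scaled to a common library size after TMM normalization. Gained and lost are used of peaks with an adjusted p under 0.05 (edgeR quasi-likelihood test, Benjamini-Hochberg over all 105048 peaks) and a change of 1 log2 unit or more. Errors of fold changes are standard errors of that fit. Total counts per library ran from 9627970 to 29699950, and replicate 1 of C and of each T population was shallower than replicate 2. Since DNA copy number moves all peaks of a chromosome stretch together, each fit was repeated after removing the median shift of each 5 Mb stretch, called the regional correction. Copy number itself was not measured.

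Untreated cells had open chromatin at the start or gene-end peak of all 9 genes that have one, at very different levels. Per kb of peak, the mean level in C was 31.1 CPM at MUC1, 18.0 at ELF3, 14.6 at SPINT2, 11.02 at CLDN3, 8.53 at CLDN4, 7.79 at EPCAM, 6.30 at ESRP1, 2.99 at GRHL1 and 2.29 at CDH1. The gene for E-cadherin thus had the lowest level per kb of the 9, and MUC1 the highest.

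**Figure D1:**
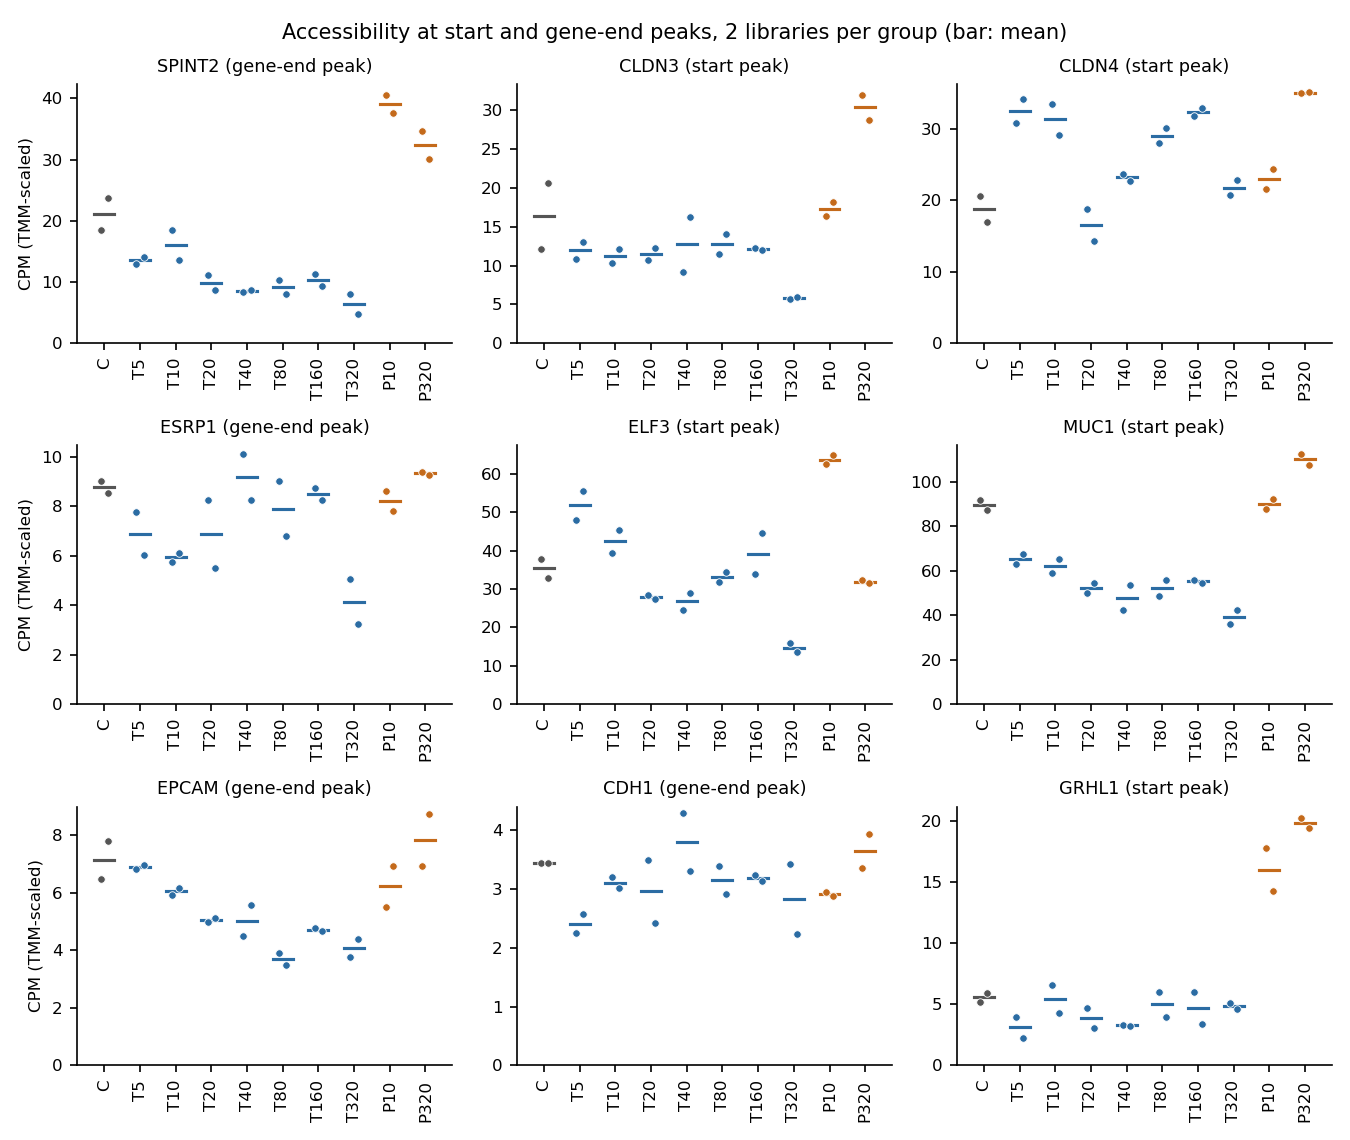
Accessibility (CPM, linear axis from 0) of the start or gene-end peak of 9 epithelial identity genes in each library (points) of the 10 groups, with C in grey, the T populations in blue and P10 and P320 in orange, and a bar at each group mean. SPINT2 fell from 18.5 and 23.7 CPM in C to 7.96 and 4.79 in T320, while GRHL1 stood at 14.3 to 20.3 in P10 and P320 and at 2.23 to 6.56 in all other libraries.

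Peaks of SPINT2, CLDN3, MUC1, ELF3 and ESRP1 were lower in T320, the population at 320 uM, than in untreated cells. In T320 against C, 20 of the 67 peaks were lost and 4 gained, where 15.5% of all peaks were lost and 15% gained. The median log2 fold change was -0.51 over the 67 peaks and -0.01 over all peaks. Of the 20 losses, 15 overlapped gene bodies, and 5 of the 9 start or gene-end peaks were among them. With the regional correction 9 (13.4%) were lost and 7 (10.4%) gained, near the 12.9% lost and 12.9% gained of all peaks under that correction, and the median was -0.09. Without T320 replicate 2 fewer of the 67 peaks were lost or gained, and so were fewer of all peaks. Losses of this kind at SPINT2, CLDN3, ESRP1, ELF3 and MUC1 were known when the genes were chosen and are given as a description.

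The claudins, which seal tight junctions, parted. CLDN3's start peak (chr7:73769661-73771145) had 12.1 and 20.6 CPM in C and 5.74 and 6.0 in T320. The libraries of T5 to T160 lay between 9.21 and 16.3 CPM, around the lower C library, and only those of T320 were below them all. The log2 fold change in T320 against C was -1.49 ± 0.26 (adjusted p = 0.0002), and it was the same, -1.49, with the regional correction. In T5 to T160 the stretch that holds it was shifted up by 0.41 to 0.50 log2 units, and there the correction turned 1 more comparison into a loss, T20 (-0.52 before and -1.02 after). CLDN4's start peak (chr7:73830482-73832676) had 20.5 and 16.9 CPM in C, 20.7 and 22.8 in T320, and 14.3 to 34.1 in the other T populations. The change of 0.22 ± 0.18 in T320 (adjusted p = 0.33) was not called, although both genes lie in the same 5 Mb stretch.

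The surface proteins MUC1 and SPINT2 had lower mean levels in every T population than in C. SPINT2's gene-end peak (chr19:38263911-38265362) had 18.5 and 23.7 CPM in C, 13.0 and 14.2 in T5, 18.5 and 13.6 in T10, and 7.96 to 11.3 in T20, T40, T80 and T160 and in T320 replicate 1. T320 replicate 2 was lowest at 4.79 CPM. The 8 libraries of T20 to T160 and both of T320 were below both C libraries, and T10 replicate 1 was level with the lower of them. It was lost at each dose from 20 uM up, with log2 fold changes of -1.10, -1.31, -1.21 and -1.03 from T20 to T160 and of -1.76 ± 0.24 in T320 (adjusted p = 1.8e-05). The T320 loss was kept under every alternative, at -1.18 with the regional correction. Those of T20 to T160 ended with that correction (-0.90, -0.93, -0.83 and -0.82), those of T20 and T160 also without C replicate 2 (-0.91 and -0.84) and without replicate 2 of their own group (-0.94 and -0.90).

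MUC1's start peak (chr1:155192537-155195412), which also lies at an end of THBS3, had 91.8 and 87.3 CPM in C, 63.3 and 67.5 in T5, 59.2 and 65.3 in T10, 42.3 to 55.8 in T20 to T160, and 36.0 and 42.5 in T320. All 14 T libraries were below both C libraries, and the fall in T320 was -1.19 ± 0.17 (adjusted p = 2.4e-05). The regional correction left -0.47, which was not called. The stretch around MUC1 as a whole had shifted by -0.70 in T320. Losses at the other end of MUC1 and beyond it were larger. The peak at chr1:155184565-155186601, at the lower-coordinate end of MUC1 and also at an end of TRIM46, had 26.8 and 18.1 CPM in C and 8.05 and 5.33 in T320, a log2 fold change of -1.76 ± 0.34 (adjusted p = 0.00043). It was lost in each of T10 to T320, and its losses in T160 and T320 were kept under every alternative. The peak at chr1:155165973-155168302 lies 17522 bases outside MUC1 and is nearest to KRTCAP2. It had 43.4 and 39.3 CPM in C and 12 and 11.6 in T320. It was lost from T10 to T320 by 1.22 to 1.81 on the log2 scale, and with the regional correction the T320 loss alone was still called, at -1.10.

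The representative peaks of the transcription factor gene ELF3 and the splicing gene ESRP1 also fell in T320. ELF3's start peak (chr1:202009341-202011311) had 37.8 and 33.0 CPM in C, 48.0 and 55.5 in T5, 24.6 to 45.5 in T10 to T160, and 15.9 and 13.6 in T320. The T5 libraries were above C and the T320 libraries below all others. Its log2 fold change in T320 was -1.27 ± 0.18 (adjusted p = 3.2e-05). With the regional correction this value was -0.46 and no longer called, beside a shift of -0.80 over the stretch. Of ELF3's 6 peaks, 0 were gained and 2 lost in T320 (all peaks: 15% and 15.5%). With the regional correction 2 were gained and 0 lost (12.9% and 12.9%). ESRP1's gene-end peak (chr8:94641935-94643329) had 9.03 and 8.53 CPM in C and 5.05 and 3.23 in T320, with 5.51 to 10.1 in the other T libraries. The fall of -1.11 ± 0.26 (adjusted p = 0.0021) was lost with the regional correction (-0.74) and without T320 replicate 2 (-0.79). Another peak at the same, lower-coordinate end of ESRP1 (chr8:94640286-94641239) fell by 1.69 ± 0.44 (adjusted p = 0.0047). This too rested on T320 replicate 2, without which it was -0.94, while without T320 replicate 1 it was -2.76.

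EPCAM, CDH1 and GRHL1 had no called change at their representative peaks in T320. EPCAM's (chr2:47387989-47388904, at the higher-coordinate end) had 6.48 and 7.78 CPM in C and 3.77 and 4.39 in T320, a fold change of -0.80 ± 0.24 (adjusted p = 0.01), under the minimum fold. EPCAM's peak at the other end (chr2:47368942-47370061) had 3.69 and 4.1 CPM in C and 1.97 and 1.30 in T320. Its loss of -1.29 ± 0.41 (adjusted p = 0.015) ended with the regional correction (-0.97), without C replicate 2 (-1.21) and without T320 replicate 2 (-0.99). CDH1's gene-end peak (chr16:68736871-68738374) had 3.45 and 3.44 CPM in C and 2.24 to 4.30 over the 14 T libraries, and its change in T320 was -0.31 ± 0.31. GRHL1's start peak (chr2:9950545-9952401) had 5.17 and 5.94 CPM in C and 2.23 to 6.56 in the T libraries, with a change in T320 of -0.21 ± 0.32. At both genes the T libraries spread around or below C with overlap.

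**Figure D2:**
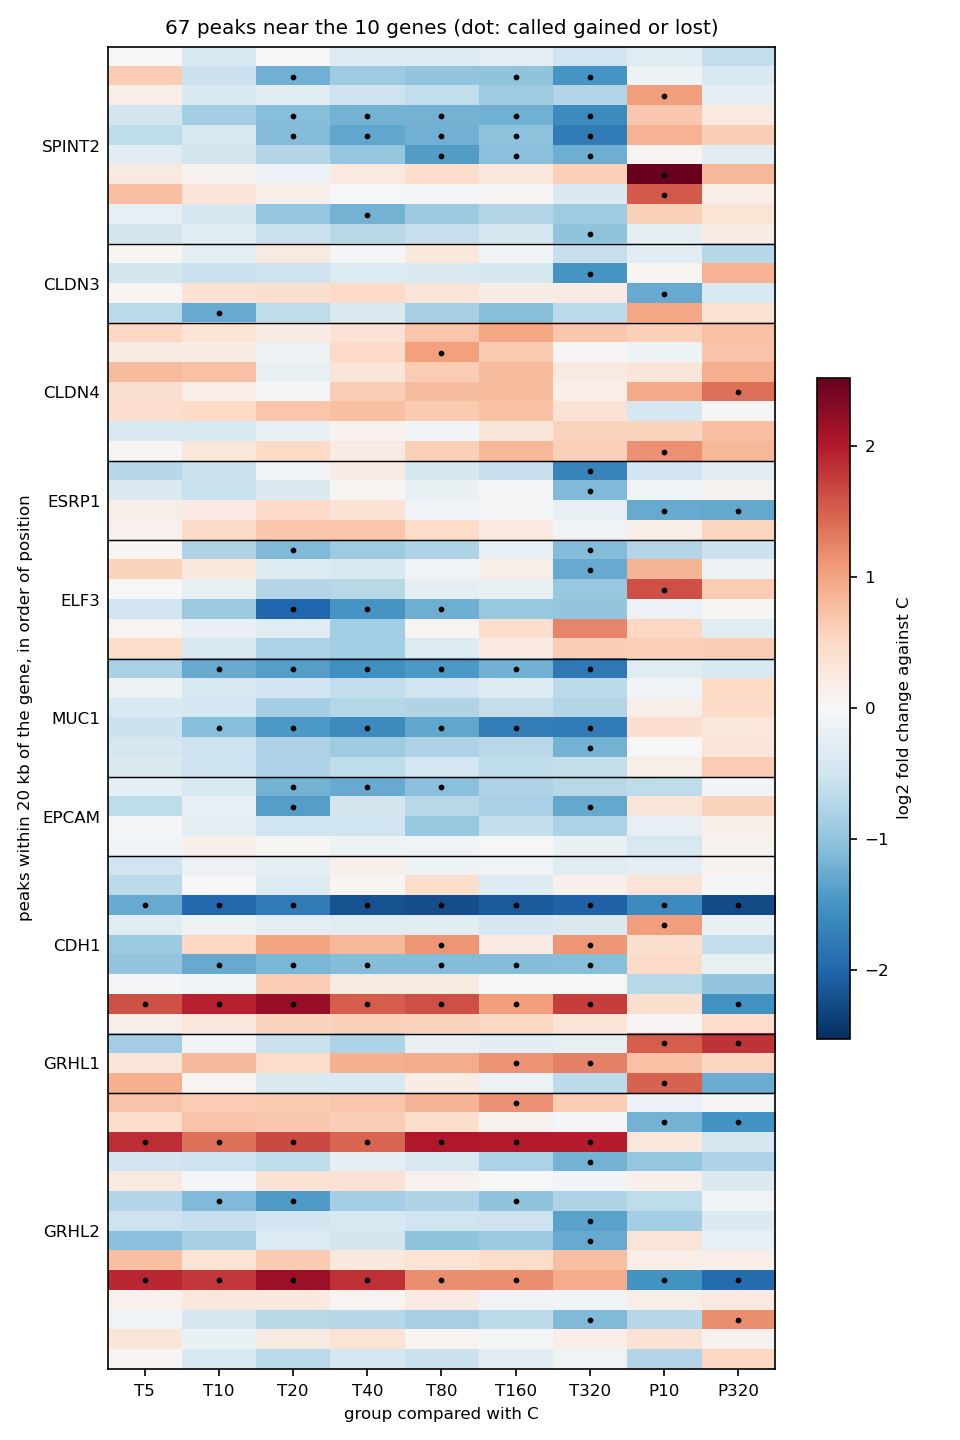
Log2 fold change against C (colour, blue to red) of all 67 peaks (rows, grouped by gene) in the 7 T populations and in P10 and P320 (columns), with a dot on each call. In T320, 20 peaks were lost and 4 gained (all peaks: 15.5% and 15%). Of the 67 peaks, 23 were called in none of the 9 comparisons, a count without a share over all peaks beside it.

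At lower doses fewer peaks moved, and the share of losses was nearer to that of all peaks. Against C, T5 had 3 gained and 1 lost of 67 (all peaks: 4.73% gained, 4.46% lost) and T10 had 3 and 6 (8.51% and 9.22%). T20 had 3 gained and 12 lost (11.2% and 13.3%), T40 had 3 and 9 (11.8% and 13.3%), T80 had 5 and 9 (12.3% and 13.6%), and T160 had 5 and 9 (11% and 12.5%). With the regional correction T20 had 3 gained and 6 lost, T40 had 4 and 3, T80 had 4 and 4, and T160 had 4 and 5, where 8.88% to 9.86% of all peaks were gained and 10.6% to 11.4% lost in these 4 populations. With library sizes scaled on gene-end peaks alone T80 had 2 gained and 14 lost (all peaks: 8.36% and 16.5%) and T160 had 1 and 10 (7.5% and 14.6%). With an offset that follows the mean count, the trended offset, T80 had 4 and 12 (12.6% and 13.9%) and T160 had 3 and 9 (11.3% and 12.6%). The replicate block gave 3 gained and 2 lost in T5 (all peaks: 5.79% and 6.81%). Some of these totals rested on 1 library. Fewer of the 67 peaks were called in T5 without T5 replicate 1, T5 replicate 2 or C replicate 2. The same held in T10 without T10 replicate 2 and in T80 without T80 replicate 2. It also held in T160 without C replicate 2 or T160 replicate 2. The calls among all peaks fell in each of these fits too. All 9 comparisons use the same 2 C libraries, so their calls are not independent of each other.

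Inside the bodies of CDH1 and GRHL2 the direction differed from peak to peak, and 3 peaks were called at every dose from T5 to T320. Of the 67 peaks, 2 were gained in all 7 T populations and 1 was lost in all 7. The share of all peaks that did so is not given here, so these counts only describe the peaks. The lost one was a CDH1 peak (chr16:68753706-68754590) 16.9 kb inside the gene from its lower-coordinate end. It had 7.80 and 11.7 CPM in C, 3.85 and 4.24 in T5, 1.63 to 3.58 in T10 to T320, 3.62 and 2.83 in P10, and 1.73 and 2.38 in P320. Every treated library was below both C libraries. The log2 fold change was -1.27 ± 0.33 in T5 and -2.03 ± 0.35 in T320 (adjusted p = 0.00016), with -1.78 to -2.23 between. P10 and P320 fell as well, by 1.60 ± 0.34 and 2.25 ± 0.34. The T5 loss ended without either T5 library (-1.21 and -1.35) or C replicate 2 (-0.94), and the other 8 were kept under every alternative.

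A peak near the other end of CDH1, 86.3 kb inside (chr16:68823038-68824071), went the other way. It had 1.64 and 2.03 CPM in C, 6.04 and 5.32 in T5, 6.12 to 9.26 in T10 and T20, 4.50 to 6.12 in T40 and T80, 3.52 and 4.13 in T160, and 3.85 and 8.29 in T320. Every T library was above both C libraries, whereas P10 (2.91 and 2.01 CPM) was close to C and P320 (0.353 and 0.929 CPM) was below it. The gain was called in all 7 T populations, from 1.04 in T160 to 2.20 in T20, with 1.74 ± 0.39 in T320 (adjusted p = 0.0014). The gains in T10, T20 and T80 did not depend on any 1 library, while the T320 gain was 1.05 and not called without T320 replicate 2. The T5 gain ended without any of its 4 libraries (1.48 to 1.78), the T160 gain likewise (0.92 to 1.22) and also with the regional correction (0.89), scaling on gene-end peaks (0.87) and the trended offset (1.07), and the T40 gain without T40 replicate 2 (1.27). P320 was lost against C by 1.53 ± 0.44 (adjusted p = 0.021), a call that ended without C replicate 2 (-1.36) or P320 replicate 1 (-0.95), and that was -2.33 without P320 replicate 2.

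GRHL2 showed the other gain of all 7 T populations. The peak lies 12.2 kb inside the gene (chr8:101504176-101505082) and had 2.46 and 2.36 CPM in C, 8.35 and 9.04 in T5, 5.39 to 7.78 in T10, T20 and T40, 9.14 to 9.98 in the 80 and 160 uM populations and 8.56 and 10.4 in T320. All 14 T libraries were above both C libraries, and P10 (2.87 and 2.96 CPM) and P320 (1.91 and 1.63) stayed near C. Log2 fold changes ran from 1.39 in T10 to 2.01 in T80, with 1.99 ± 0.23 in T320 (adjusted p = 3.9e-06), and every one of the 7 calls was kept under every alternative.

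A second GRHL2 peak, 134.3 kb inside (chr8:101626203-101627188), had 2.63 and 1.18 CPM in C, 4.88 to 10.2 in T5, T10, T20 and T40, 3.73 to 4.49 in T80 and T160, 2.48 and 4.35 in T320, and 0.409 to 0.828 in P10 and P320. The libraries of T5 to T160 were above C, those of P10 and P320 below it, and those of T320 overlapped C. Its gain was 1.90 in T5, 1.77 at 10 uM, 2.16 at 20 uM, 1.84 at 40 uM, 1.16 at 80 uM and 1.17 at 160 uM; it was not called in T320 (0.93), and lost in P10 (-1.51 ± 0.47) and P320 (-1.94 ± 0.47). The C libraries differ here, and several calls rested on them: without C replicate 2 the gains in T5, T10, T80 and T160 were 1.37, 1.25, 0.64 and 0.65 and not called, without C replicate 1 the T80 and T160 gains were 1.79 and 1.80, and the losses in P10 and P320 ended at -0.88 and -1.31. The gains of T80 and T160 also ended without either library of the group (1.03 to 1.30) and with scaling on gene-end peaks (0.91 and 0.95), that of T10 without T10 replicate 2 (1.42), and the losses without P10 replicate 1 (-1.13) and P320 replicate 2 (-1.74).

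**Figure D3:**
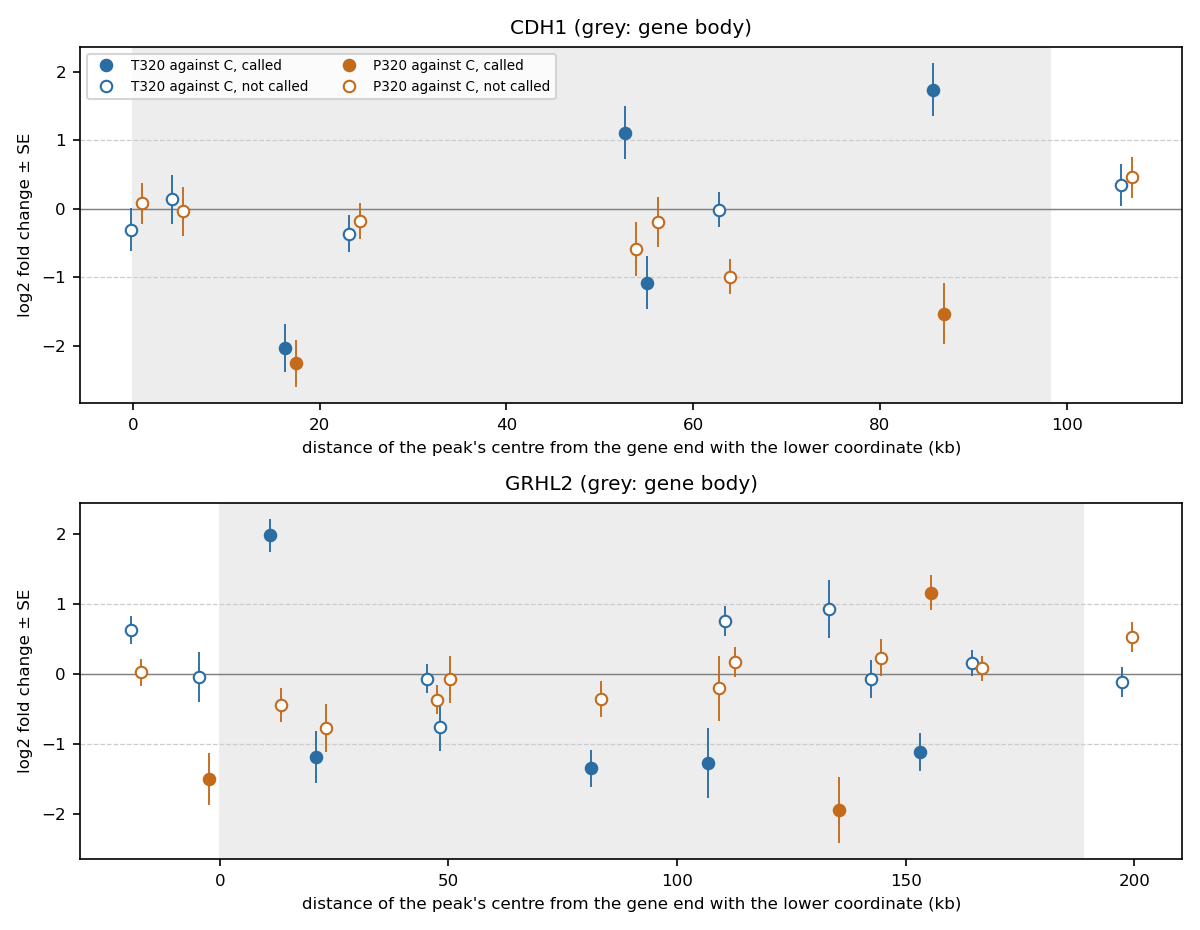
Log2 fold change against C (vertical axis, error bars 1 standard error) of the peaks of CDH1 and GRHL2 by distance of their centre from the gene end with the lower coordinate (horizontal axis, kb, points of a peak drawn slightly apart), for T320 in blue and P320 in orange, with filled points called and the gene body in grey. The CDH1 peak at 16.9 kb fell in both groups (-2.03 and -2.25), and the one at 86.3 kb rose in T320 (1.74) and fell in P320 (-1.53).

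Peaks that fell in T populations and were not at the representative sites were found in several genes. CDH1's peak 55.6 kb inside (chr16:68792190-68793669) was lost in T10 to T320, by 1.08 to 1.26 on the log2 scale, and each of these 6 calls ended without C replicate 1 (-0.47 to -0.65). ELF3's peak beyond the gene (chr1:202022643-202023872) had 16.3 and 16.5 CPM in C and 5.16 and 3.14 in T20, a fold change of -2.01 ± 0.25 (adjusted p = 1.4e-05), kept at -1.08 with the regional correction. In GRHL2 the peak 82.3 kb inside (chr8:101573767-101575775) had 29.5 and 48.3 CPM in C and 13.4 and 17.2 in T320. Its loss of -1.35 ± 0.27 (adjusted p = 0.00055) was -0.94 and not called without C replicate 2. Over the 9 comparisons with C, 25 of the 67 peaks were lost in at least 1 T population, 7 were gained in at least 1, and 0 did both. No such shares over all peaks are given here, so these counts are no result about the genes.

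Cells exposed for 9 days had gains and losses around these genes, and GRHL1 was the one with a called gain at its start. P10 had 8 gained and 5 lost of the 67 peaks against C (all peaks: 9.32% and 12.8%), and P320 had 3 gained and 5 lost (3.94% and 7.91%). Median log2 fold changes were 0.14 and 0.08, against -0.10 and -0.11 over all peaks. Scaling on gene-end peaks gave 4 gained and 7 lost in P10 (all peaks: 4.79% and 17.8%) and 1 and 10 in P320 (0.794% and 22.5%). That scaling moved the median of all peaks in P320 from -0.11 to -0.60 and in P10 from -0.10 to -0.33, so that values under it are read against those medians.

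GRHL1's start peak rose in both. It had 17.8 and 14.3 CPM in P10 and 20.3 and 19.4 in P320, against 5.17 and 5.94 in C, and all 4 exposed libraries were above all 16 others. The fold changes were 1.52 ± 0.31 (adjusted p = 0.0013) and 1.83 ± 0.31 (adjusted p = 0.00056), kept under every alternative. None of the other 8 start or gene-end peaks was called in P10 or P320 by edgeR or DESeq2; at an unadjusted p under 0.05, 3 of the 9 were up in P10 and 4 in P320, GRHL1 included, and 0 were down. SPINT2's gene-end peak stood at 40.5 and 37.7 CPM in P10 and 34.7 and 30.1 in P320, above both C libraries, with log2 fold changes of 0.88 ± 0.22 and 0.61 ± 0.22. ELF3's start peak stood at 62.5 and 64.8 CPM in P10, above both C libraries, and at 32.4 and 31.5 in P320, just below them. The claudins stood above C in P320, CLDN3 at 32.0 and 28.7 CPM and CLDN4 at 34.9 and 35.1, while in P10 they stood at 16.3 and 18.1, within the range of C, and at 21.6 and 24.4. MUC1's start peak stood at 87.7 and 92.5 CPM in P10, around C, and at 113 and 108 in P320, with no call in either.

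The largest gains in P10 lay at SPINT2 and ELF3. SPINT2's peak 26.2 kb inside the gene (chr19:38290163-38291376) had 7.47 and 3.96 CPM in C, 3.86 to 8.99 in the T libraries, 33.9 and 30.2 in P10, and 9.32 and 10.6 in P320. The P10 libraries stood far above all others, at 2.52 ± 0.27 over C (adjusted p = 1.6e-05), and P320 was lower than P10 by 1.68 on the log2 scale (adjusted p = 0.00026). The peak beyond SPINT2 (chr19:38298483-38299439), which is nearest to YIF1B, behaved alike. It had 29.2 and 28.2 CPM in P10 against 11.8 and 8.02 in C, a gain of 1.55 ± 0.23. ELF3's peak at its higher-coordinate end (chr1:202017643-202019342) had 32.5 and 32.4 CPM in P10, 11.4 and 9.71 in C and 17.3 and 15.6 in P320, a gain of 1.62 ± 0.23 in P10 (adjusted p = 8.6e-05). These 3 gains were kept under every alternative. GRHL1's peak at chr2:9991868-9992850 was gained in P10 as well (1.49 ± 0.43, adjusted p = 0.013), but its C libraries differed (2.87 and 1.08 CPM): without C replicate 1 the value was 2.30, without C replicate 2 0.90 and without P10 replicate 1 1.27, the last 2 not called.

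Other peaks fell in the exposed cells. CLDN3's peak outside the gene (chr7:73779231-73780539) had 7.06 and 6.13 CPM in C and 2.21 and 3.27 in P10, a loss of 1.26 ± 0.24 kept under every alternative. ESRP1's peak beyond the gene (chr8:94712950-94713987) had 6.65 and 5.28 CPM in C, 2.65 and 2.27 in P10 and 2.29 and 2.56 in P320, losses of 1.27 ± 0.26 and 1.28 ± 0.26. The P320 loss was kept under every alternative and the P10 loss was -0.88 with the regional correction. GRHL2's peak 154.3 kb inside (chr8:101646156-101647295) had 10.3 and 10.9 CPM in C, 6.57 and 6.41 in P10, 23.3 and 24.4 in P320 and 5.74 and 4.26 in T320. P320 stood above every other library, 1.17 ± 0.25 over C (adjusted p = 0.0038), though scaling on gene-end peaks gave 0.68. T320 was 1.11 ± 0.27 below C on the log2 scale, and that call ended with the regional correction (-0.92) and without T320 replicate 2 (-0.89). CLDN4's peak at chr7:73833029-73834096, which also lies at an end of METTL27, was gained in P320 (1.39 ± 0.28), a call that ended with scaling on gene-end peaks (0.88) and without C replicate 2 (0.99).

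**Figure D4:**
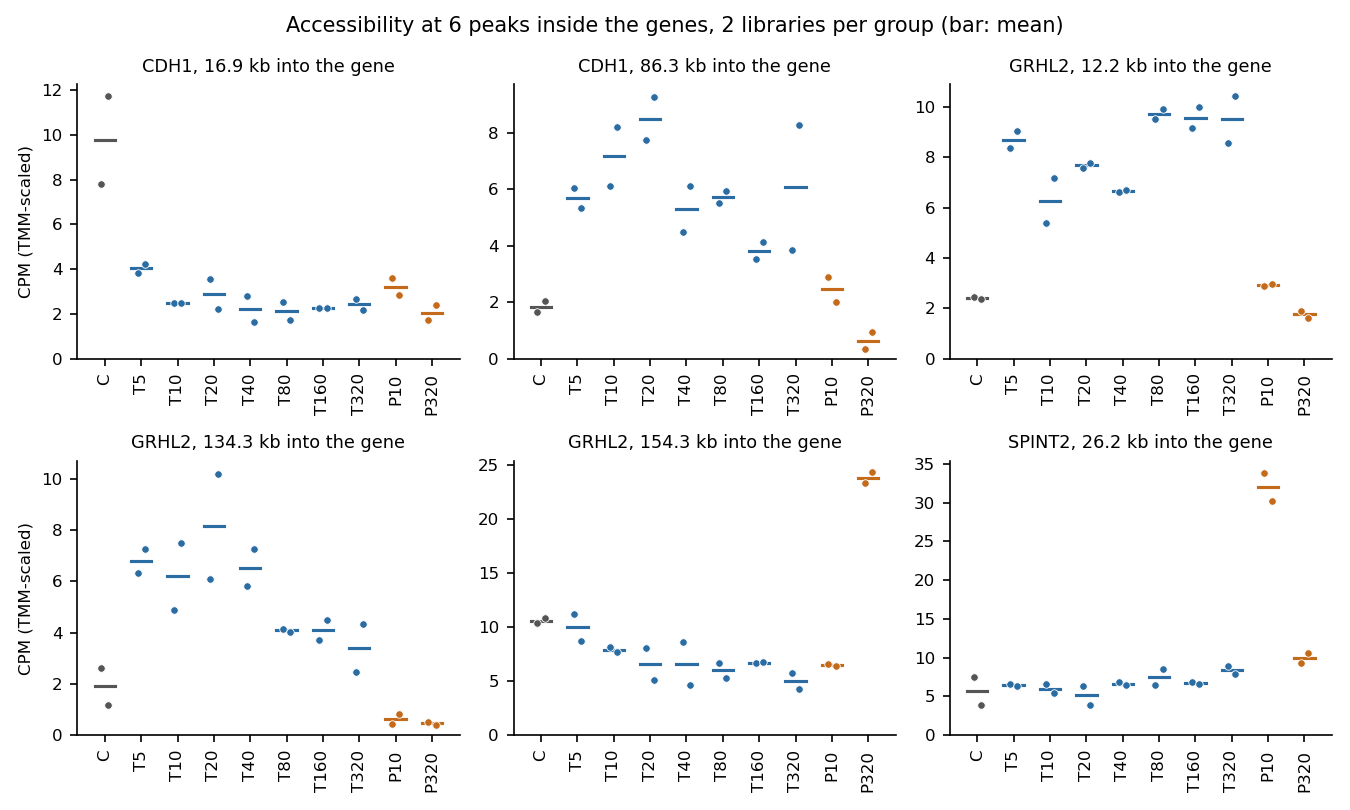
Accessibility (CPM) in each library (points, coloured as C grey, T blue, P orange, with group means as bars) of 6 peaks of the epithelial identity genes away from the representative peaks. The SPINT2 peak reached 33.9 and 30.2 CPM in P10 and at most 10.6 elsewhere, and the GRHL2 peak at 154.3 kb reached 23.3 and 24.4 CPM in P320.

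Set against each other at the same dose, adapted cells had lower representative peaks than exposed cells at SPINT2 and GRHL1 at both doses and at CLDN3 at 320 uM, while peaks inside CDH1 and GRHL2 went both ways. T320 against P320, which shares no control with T10 against P10, had 21 of the 67 peaks lost and 7 gained (all peaks: 14.5% and 19.7%), with a median of -0.55 against 0.03. Scaling on gene-end peaks gave 10 lost and 10 gained (all peaks: 6.53% and 27.9%), with the median of all peaks at 0.42, and the regional correction 10 lost and 8 gained (12.4% and 16.7%). T10 against P10 had 14 lost and 6 gained (15.1% and 17.8%), with a median of -0.33 against 0.04.

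In T320 against P320, 6 of the 9 representative peaks were lost. SPINT2 stood at 7.96 and 4.79 CPM in T320 and 34.7 and 30.1 in P320 (-2.38 ± 0.24, adjusted p = 6.3e-07), CLDN3 at 5.74 and 6.0 and 32.0 and 28.7 (-2.37 ± 0.26, adjusted p = 1.4e-06), and GRHL1 at 5.14 and 4.57 and 20.3 and 19.4 (-2.04 ± 0.31, adjusted p = 3.5e-05). In each the groups were far apart, and the regional correction left -1.71, -2.35 and -1.46, all called. MUC1 (-1.49 ± 0.17) ended with that correction (-0.65), ESRP1 (-1.20 ± 0.26) with scaling on gene-end peaks (-0.79) and without T320 replicate 2 (-0.88), and ELF3 (-1.12 ± 0.18) with both corrections (-0.73 and -0.42) and the trended offset (-0.89). In T10 against P10, SPINT2 (-1.29 ± 0.23) and GRHL1 (-1.58 ± 0.31) were lost, and both were kept under every alternative. None of the 9 was gained in either comparison by edgeR or DESeq2, and at an unadjusted p under 0.05 1 was up in T10 against P10 and 0 in T320 against P320.

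Inside CDH1 and GRHL2 some peaks were higher and some lower in the adapted cells. The CDH1 peak 86.3 kb inside was higher in T320 than in P320 by 3.27 ± 0.41 (adjusted p = 5.2e-06) and in T10 than in P10 by 1.55 ± 0.36. The GRHL2 peak 134.3 kb inside was higher by 2.88 ± 0.45 and 3.29 ± 0.43, and the one 12.2 kb inside by 2.43 ± 0.23 and 1.12 ± 0.22. The last of these was 0.89 and not called without T10 replicate 2, and also ended with the trended offset (0.96) and the regional correction (0.996). In the other direction, the CDH1 peaks 23.7 kb and 55.6 kb inside were lower in T10 than in P10, by 1.18 ± 0.26 and 1.74 ± 0.38 on the log2 scale, and the GRHL2 peak 154.3 kb inside was lower in T320 than in P320 by 2.27 ± 0.27. CLDN3's peak outside the gene was higher in T10 than in P10 by 1.63 ± 0.23, and CLDN3's start peak was not called there (-0.61 ± 0.25). The 2 CDH1 calls, the GRHL2 call and the call at CLDN3's outer peak were kept under every alternative.

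At some of these peaks the step from 10 to 320 uM differed between adapted and exposed cells. Between P320 and P10, 2 peaks were higher at the higher dose and 6 lower (all peaks: 4.1% and 9.68%). The 2 were GRHL2 peaks, the one 154.3 kb inside (1.88 ± 0.26) and one beyond the gene nearest to NCALD (1.27 ± 0.22). GRHL1's peak at chr2:9991868-9992850 was lower in P320 by 2.75 ± 0.45, at 0.847 and 0.743 CPM against 6.13 and 4.62 in P10. The difference of the dose effects (T320 against T10, minus P320 against P10) was above 0 at 6 called peaks and below 0 at 7 (all peaks: 13.6% and 10%). The split moved with the scaling, as that of all peaks did: 8 and 5 with total counts (all peaks: 13.9% and 7.86%), 9 and 2 with gene-end peaks (16.7% and 4.69%), 7 and 4 with the trended offset (13.9% and 10.5%) and 10 and 2 with the regional correction (13.8% and 8.15%). The call was kept under every alternative at 4 peaks: CLDN3's start peak (-1.75 ± 0.36), the GRHL2 peaks 154.3 kb (-2.56 ± 0.38) and 12.2 kb inside (1.31 ± 0.32), and SPINT2's peak 26.2 kb inside (2.18 ± 0.37).

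A steady trend with dose over the 7 T populations was called at 1 of the 67 peaks, a SPINT2 peak at an end of PPP1R14A (chr19:38250835-38252072), with -0.30 ± 0.07 log2 units per doubling. Over all peaks 3.37% rose and 2.35% fell with dose. That call ended with the regional correction (-0.23), without the T5 population (-0.13), without T320 (-0.31) and without T320 replicate 2 (-0.24). None of the 67 rose by edgeR or DESeq2, and at an unadjusted p under 0.05 4 slopes were above 0 and 14 below.

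**Figure D5:**
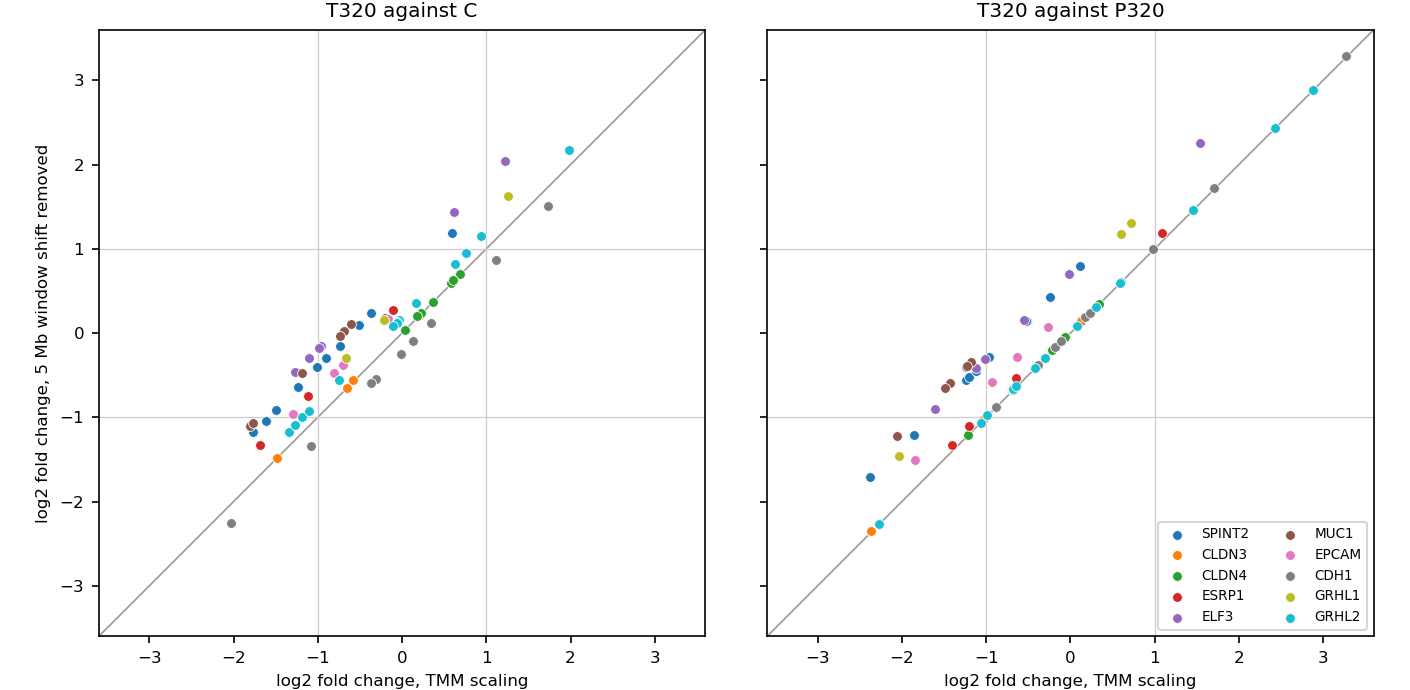
Log2 fold change of the 67 peaks before (horizontal axis) and after (vertical axis) the median shift of their 5 Mb stretch was removed, coloured by gene, in T320 against C (left) and T320 against P320 (right), with a diagonal of no shift and grey lines at the minimum fold. On the left, the peaks of ELF3, MUC1 and SPINT2, whose stretches shifted by -0.80, -0.70 and -0.59, moved up the most, and the CLDN3 and CLDN4 peaks (-0.01) stayed on the diagonal.

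The stretches around the 10 genes shifted unequally, as the plot of values before and after the regional correction shows. In T320 against C the shift was -0.80 around ELF3, -0.70 around MUC1, -0.59 around SPINT2, -0.38 around ESRP1, -0.37 around GRHL1, -0.32 around EPCAM, -0.20 around GRHL2, -0.01 around CLDN3 and CLDN4, and 0.24 around CDH1. Of the 24 calls in T320, 12 were kept with this correction and 6 under every alternative. The 6 included the losses at SPINT2's gene-end peak, CLDN3's start peak and the CDH1 peak 16.9 kb inside. Also among them were the losses at the MUC1 peak shared with an end of TRIM46 and at the peak nearest to KRTCAP2. The last was the gain at the GRHL2 peak 12.2 kb inside.

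Other epithelial genes were read from a list of 50 further junction, polarity and epithelial regulator genes, 45 of which had a start or gene-end peak. In T320 against C 8 of the 45 (17.8%) were lost and 1 gained, near the 15.5% of all peaks lost, with a median of -0.40 against -0.01 over all peaks. With the regional correction 4 were lost and 1 gained. EHF, an ETS factor related to ELF3, fell from 46.1 ± 4.11 CPM (SD, n = 2) in C to 4.1 ± 2.31 in T320, a log2 fold change of -3.56 ± 0.37. This loss was kept under every alternative. F11R, a junctional adhesion molecule, fell by 1.39 ± 0.20, and this ended with the regional correction (-0.55). GRHL3, EPS8L1, LSR, TMPRSS4 and CDS1 were also among the 8 losses. The gain, at MYH14, a non-muscle myosin, was 1.06 ± 0.28 and turned to -0.43 with the regional correction. It also ended with scaling on gene-end peaks (0.98), without C replicate 1 (0.73) and without T320 replicate 2 (0.84).

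In P320 against C, 5 of the 45 (11.1%) were gained and 1 (2.22%) lost, where 3.94% of all peaks were gained and 7.91% lost. The median was 0.46 against -0.11 over all peaks. The 45 peaks lie at gene starts or ends, and scaling on gene-end peaks moved the median of all peaks to -0.60. The lists described below had medians of 0.60 (repressors), 0.46 (mesenchymal), 0.88 (keratins), 0.48 (neural), 0.04 (leukocyte) and -0.20 (endothelial). The rise is therefore not shown to be particular to epithelial genes. LLGL2, a polarity gene, rose from 9.62 ± 2.00 to 31.1 ± 0.38 CPM (1.68 ± 0.19), under every alternative. MARVELD2, which encodes tricellulin of the tight junction, rose by 1.18 ± 0.30 and PATJ, a polarity scaffold, by 1.01 ± 0.23. MARVELD2 was not called with scaling on gene-end peaks (0.73) or without C replicate 1 (0.81) or P320 replicate 1 (1.17). PATJ was not called with total-count scaling (0.93), scaling on gene-end peaks (0.53) or the trended offset (0.90), nor without C replicate 1 (0.89) or P320 replicate 1 (0.96). The loss, at EPS8L1, was -1.08 ± 0.36 and ended without any of the 4 libraries compared (-0.92 to -1.21). In T320 against P320, 18 of the 45 were lost and 0 gained (all peaks: 14.5% and 19.7%), with a median of -0.88 against 0.03. Scaling on gene-end peaks moved the median of all peaks to 0.42 there, with 6.53% lost and 27.9% gained. Peaks at gene ends thus differed from all peaks as a class, and their part in the -0.88 was not tested. DESeq2 also gave 18 lost and 0 gained, and the regional correction 19 and 0 (all peaks: 12.4% and 16.7%). At an unadjusted p under 0.05, 28 were down and 0 up. The other lists had medians of -0.27 (repressors), 0.12 (mesenchymal), -0.11 (keratins), 0.19 (neural), 1.19 (leukocyte) and -0.87 (endothelial).

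Of all peaks, 15% were gained and 15.5% lost in T320 against C, and 3.94% and 7.91% in P320 against C. Of 9 repressors of epithelial genes with a peak, 1 (11.1%) was called in T320 against C, FOXC2, a forkhead factor, at 1.26 ± 0.21. It was gained in P320 too (1.21 ± 0.20), and the regional correction ended both (0.89 and 0.85). ZEB1, SNAI2 and TWIST1 had changes of 0.48, 0.19 and 0.02 in T320 and were not called. Of 16 mesenchymal genes, 5 (31.2%) were gained and 0 lost in T320 and 2 (12.5%) gained and 0 lost in P320 by edgeR. The regional correction left 3 gained and 0 lost in T320 (all peaks: 12.9% and 12.9%). It left 2 and 0 in P320 (3.89% and 6.3%). DESeq2 gave 5 and 0 in T320 and 3 and 0 in P320. At an unadjusted p under 0.05, 9 were up and 2 down in T320 and 9 up and 0 down in P320. Of all 105048 peaks, 52231 in T320 and 34189 in P320 passed that limit in either direction. VIM, the intermediate filament vimentin, rose by 1.21 ± 0.22 in T320 but not with the regional correction (0.69), nor without C replicate 1 (0.99) or T320 replicate 2 (0.97). COL5A1, a fibrillar collagen, rose by 1.12 ± 0.17, or 0.98 without T320 replicate 2, and COL6A2 by 1.63 ± 0.33 in P320. Of 3 keratins with a peak, KRT18, a keratin of simple epithelia, was gained in T320 (1.36 ± 0.23) and in P320 (1.12 ± 0.23), the latter not with the regional correction (0.93).

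Markers of other cell types were read in the same libraries. Of 12 leukocyte markers 6 had a peak, and PTPRC, CD3D, CD3E, MS4A1 and LYZ were among those with none. The summed level of the 6 was 80.3 and 66.7 CPM in C, 155 and 200 in T320 and 79.0 and 82.2 in P320. In T320, 4 of them (CSF1R, ITGAM, ITGB2 and CD68) were gained, or 66.7%, where 15% of all peaks were. Of 9 endothelial markers 6 had a peak, and PECAM1, CDH5 and TEK had none; their sum was 41.1 and 39.7 CPM in C and 37.0 and 32.4 in T320. All 8 neural markers had a peak, with a sum of 84.9 and 93.3 CPM in C, 153 and 194 in T320 and 138 and 135 in P320. The part of these levels in the changes of the epithelial identity genes was not tested.

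Over the 10 group means, the representative peaks of the members did not all follow one course. As a description over 10 points that share libraries, with no test, Pearson's r of the log2 CPM was 0.96 between SPINT2 and MUC1, 0.89 between CLDN3 and MUC1 and -0.19 between ELF3 and CDH1. Among the peaks at gene ends, EVA1B was the most like SPINT2 (r = 0.98), EGLN3 the most like CLDN3 (0.98), a peak shared by DRAM2 and CEPT1 the most like MUC1 (0.99) and SLC48A1 the most like GRHL1 (0.99). The order of the means differed by gene. T320 was the lowest group at SPINT2, CLDN3, ESRP1, ELF3 and MUC1, T5 at CDH1 and GRHL1, T80 at EPCAM and T20 at CLDN4. P320 was the highest at CLDN3, CLDN4, ESRP1, MUC1, EPCAM and GRHL1, P10 at SPINT2 and ELF3, and T40 at CDH1. Neighbouring T populations in these orders mostly overlapped. At SPINT2, T20 (11.1 and 8.77 CPM), T80 (10.3 and 8.11) and T160 (11.3 and 9.41) could not be set apart by their libraries, and at GRHL1 neither could C and T10, T80 or T160, while the libraries of T5, T20, T40 and T320 lay under both of C.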

How the data were processed

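ATAC-seq counts per consensus peak were taken from the deposited table: 20 libraries, 2 in each of 10 groups, unnormalised whole-number counts that the authors made. The submitters' processing notes name deepTools 3.1 and 3.5.1, HOMER 4.1, MACS2, Bowtie2, Trim Galore, Picard, SAMtools and DESeq2, without roles, and the build GRCh38. Whether reads or fragments were counted, how duplicates were handled and whether starts count from 0 are not given in the sources used here, and peak positions are printed as deposited.

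Peaks were placed with the RefSeq gene table. Counts were fitted over all 20 libraries with edgeR 4.0.16 (robust quasi-likelihood, TMM, R 4.3.3). filterByExpr removed 0 peaks. Calls needed a Benjamini-Hochberg adjusted p under 0.05 over all peaks and an absolute log2 fold change of at least 1. The dose trend used the 7 T populations, replicates summed, with an absolute slope of at least 0.25 per doubling of dose. On simulated counts for T320 against C (105047 peaks), 67 of 100 peaks changed by 1.5 log2 units and 99 of 100 changed by 3 were recovered, with 2 false calls. The simulated counts had the same spread at all peaks, no regional shifts and no link between same-numbered libraries. They therefore do not measure false calls in the real data. Totals of 9627970 to 29699950 counts limit precision at low peaks, and errors reflect counting and 2 libraries per group.

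Each fit was repeated with DESeq2 1.42.0, the regional correction, a trended offset, TMM from gene-end peaks, total-count scaling, a block by replicate number, a stricter filter (2 CPM in 2 libraries), no filter, no minimum fold, peaks within 5 or 50 kb or nearest to a member, and leaving out each library or, for the trend, the T5 or T320 population. A group left with 1 library was assumed to vary like the others.

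Named by rule were each member's representative peak, its 2 other peaks with the smallest p in T320 and 1 in P320 against C, 3 gained and 3 lost in each other comparison, and 3 and 3 list genes in T320 and P320. Other called peaks were named after their values were seen. Some genes that the rule or the lists hold are not reported here. The members, the lists and the tests were chosen with earlier results of these data known. Plots used matplotlib 3.10.9.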

Additional observations from a re-analysis of the deposited data

Results flagged for a closer look

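The test of the difference between the dose effects of adapted and exposed cells (T320 against T10, minus P320 against P10) passed at 13 of the 67 peaks (19.4%), below the share of all peaks that passed (23.6%), so the count is no result about these genes. The values below are log2 units. A value below 0 means a lower dose effect in adapted than in exposed cells. It can come from a fall in adapted cells, a rise in exposed cells or both. Calls below 0 were -2.56 at the GRHL2 peak chr8:101646156-101647295, -1.75 at CLDN3's start peak and -1.27 at the GRHL2 peak chr8:101573767-101575775. Others were -1.13 at CLDN4's start peak and -1.12 at a SPINT2 peak at ends of C19orf33 and YIF1B. SPINT2's gene-end peak had -1.08 and CLDN3's peak outside the gene -1.03. Calls above 0 were 2.27 at an ELF3 peak starting at 202028995 on chromosome 1, 2.18 at SPINT2's peak inside the gene, 2.01 at the GRHL1 peak chr2:9991868-9992850, 1.72 at the CDH1 peak chr16:68823038-68824071, 1.59 at the CDH1 peak chr16:68790018-68791217 and 1.31 at the GRHL2 peak chr8:101504176-101505082. Of the 13, the values at GRHL2 (-2.56 and 1.31), CLDN3's start peak and SPINT2's inner peak (2.18) were called under every alternative. No explanation was tested.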

How the results depend on the processing

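With no minimum fold, the calls among the 67 peaks against C were 38 in T320, 26 in T160, 29 in T80, 26 in T40, 31 in T20, 14 in T10, 10 in T5, 25 in P10 and 19 in P320, with 35 in T10 against P10, 17 in P320 against P10, 21 in the difference of dose effects and 6 in the trend. Of all peaks, 42.1% then passed in T320, 33.8% in T160, 37.4% in T80, 36.6% in T40, 35.3% in T20, 25.8% in T10, 13% in T5, 33.1% in P10, 19% in P320, 46.9% in T10 against P10, 20.1% in P320 against P10, 26.2% in the difference and 10.9% in the trend. The regional correction gave 9 in T160, 8 in T80, 7 in T40, 9 in T20, 18 in T320 against P320 and 0 in the trend. Of all peaks, 19.5%, 21.2%, 19.7%, 19.9%, 29.1% and 4.76% were called with it, in that order. The 38 peaks within 5 kb gave 9 in T20, 7 in T40, 8 in P10, 12 in T10 against P10, 17 in T320 against P320, 5 in P320 against P10 and 0 in the trend. The 118 peaks within 50 kb gave 24 in T80, 22 in T40, 25 in T20, 15 in T10, 7 in T5, 20 in P10, 13 in P320, 33 in T10 against P10, 48 in T320 against P320, 28 in the difference and 2 in the trend. The 48 peaks nearest to a member gave 5 in P320 against P10 and 0 in the trend. The last 3 settings change how many peaks are counted.

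Leaving out 1 library gave 13 to 25 calls in T320, 5 to 14 in T160, 7 to 19 in T80, 11 to 16 in T40, 10 to 18 in T20, 5 to 9 in T10, 2 to 5 in T5, 10 to 15 in P10, 6 to 10 in P320, 14 to 24 in T10 against P10, 27 to 32 in T320 against P320, 7 to 8 in P320 against P10, 9 to 15 in the difference and 0 to 1 in the trend. Of 319 single results, the regional correction ended or turned 74, of which MYH14 in T320 reversed to -0.43, TMM from gene-end peaks ended 43 and DESeq2 0. The cause was not tested. The replicate block added 1 call and ended none of the 319. Its counts were 5, 9, 15, 12, 16, 15, 25, 13 and 9 against C in the order T5 to T320, P10, P320. Of all peaks, 12.6%, 20.6%, 26.8%, 27.5%, 28.4%, 26%, 32.8%, 25.1% and 14.2% were called with it, in the same order. Same-numbered libraries deviated together among C and T groups (r of 0.17 to 0.59 over 28 pairs of groups) and not where P10 or P320 took part (-0.10 to -0.00 over 17), and no label says what a number stands for.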
